A study of Mus musculus with 9 samples.

Results

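Of the 5281 circular RNAs (circRNAs) counted in the E14.5 mouse lateral cortex, 91 stood above set thresholds in differentiative progenitors (DP), the intermediate cell type between proliferative progenitors (PP) and newborn neurons (N). Of the 91, 90 came from 65 genes and 1 had no annotated gene. They were chosen by level. A circRNA was kept when its mean count over the 9 libraries was at least 8, its mean level in DP was at least 1.5 times that in PP, and its mean level in N was at most 0.67 times that in DP. A mean count of at least 8 was reached by 4291 circRNAs. Levels are counts scaled to a common library total (CPM), after leaving out 27 entries, namely CiCo_mm9_circ_004999 within Cdk8 and a cluster on chromosome 17, which together took most counts of every library. Because the criteria read these levels, that DP lies above PP and N is how the circRNAs were chosen and not a result, and the values of these comparisons are given as a description without a test. Under the mirrored criteria, that is, DP at most 0.67 times PP and N at least 1.5 times DP, 91 circRNAs were lowest in DP.

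All libraries came from C57BL/6 embryos at E14.5, from litters of dams that were double heterozygous for Btg2-RFP and Tubb3-GFP. In this line the Btg2 promoter drives RFP from the switch of PP to DP onward, and the Tubb3 promoter drives GFP in neurons. PP were sorted as cells without either reporter, DP as RFP positive and GFP negative cells, and N as GFP positive cells, with 3 libraries each. The total RNA of all groups was treated with RNase R, which degrades linear RNA. The PP gate is defined by the absence of both reporters and can hold any cell that lacks them, and the number of embryos behind a library is not given in the sources used here. The table holds no circRNA of Btg2, Tubb3 or Eomes, so that other markers are given to describe the groups. The gene lists were chosen with earlier results of these data known, so that their sums are no independent check of the sort. The 32 circRNAs of 12 radial glia genes summed to 16194 CPM ± 432 (SD, n = 3) in PP, 7807 ± 831 in DP and 3262 ± 213 in N. The 47 circRNAs of 17 genes of newborn neurons summed to 3489 CPM ± 238 in PP, 8630.1 ± 1343 in DP and 27678 ± 608 in N. Of the 11 circRNAs of 6 genes of neurogenic commitment, 3 are among the 91, which were chosen by level, and are left out here. The other 8 summed to 4818 CPM ± 615 in PP, 7105 ± 465 in DP and 5747 ± 281 in N. The list has 20 genes, and Neurog2, Insm1 and Dll1 are among those without a circRNA in the table. The most abundant of the 8, of Tcf4, had a mean of 3341 CPM over the 9 libraries, so that the sum rests largely on this gene. No gene of the lists for microglia, endothelium and pericytes, or erythroid cells had a circRNA in the table. Of the list for interneurons, 5 circRNAs of 2 genes summed to 25.0 CPM ± 31.1 in PP, 33.6 ± 3.51 in DP and 209.6 ± 29.0 in N. The list for Cajal-Retzius cells had 1 circRNA, of Reln, with 1.68 CPM ± 2.91 in PP, 6.00 ± 2.06 in DP and 157 ± 37.7 in N. That for oligodendrocyte precursors had 1, of Bcas1, with 3.53 CPM ± 3.48 in DP and no count in PP or N.

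Counts outside the 27 entries ranged from 83572 in PP replicate 3 to 287983 in N replicate 2, so that 1 count was worth between 3.47 and 11.97 CPM. PP replicate 3 and N replicate 1, the shallowest libraries of their cell types, stood apart. Across the 4291 circRNAs, Spearman's rho of PP replicate 3 was 0.646 and 0.629 with PP replicates 1 and 2, which had 0.908 with each other. That of N replicate 1 was 0.746 and 0.802 with N replicates 2 and 3, which had 0.938 with each other, and the 3 DP libraries had between 0.921 and 0.931. CircRNAs are not independent points in such a relation. PP replicate 3 was the lowest PP library for 53 of the 91 circRNAs and the highest for 25, and N replicate 1 was the lowest N library for 57 and the highest for 15. The DP/PP criterion was met by 63 of the 91 without PP replicate 3, the N/DP criterion by 70 without N replicate 1, and both by 53 without these libraries. In bulk libraries of sorted cells, fewer cells with a circRNA and fewer molecules per cell cannot be told apart.

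A circRNA forms when the spliceosome joins the end of an exon back to the start of the same or an upstream exon, which leaves a closed loop without cap or poly(A) tail. The loop resists exonucleases and can outlast the linear transcript of its parental gene, so that its level need not follow that of the mRNA. In the developing cortex, radial glia proliferate in the ventricular zone and give rise to basal progenitors, most of which divide to form neurons. Notch signalling keeps radial glia in the progenitor state, and its loss in a daughter cell goes along with commitment to the neuronal lineage. Of the 65 parental genes, 15 stand on one of the gene lists drawn up for this tissue, 50 stand on none, and 2 are long noncoding RNAs. The circRNAs are described by the roles of these genes, which is an order of description and not a theme of the whole.

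The feature by which a circRNA is told from its linear counterpart is the backsplice junction. It is shown here for the 8 most abundant circRNAs of separate genes whose DP libraries all lay above every PP and N library, for the second circRNA of Anp32e and of Mfng, and for both circRNAs of Kif26b, which had the largest smaller fold. The last 20 bases of the circle are in lower case and the first 20 bases, to which they are joined, in capitals, read 5′ to 3′ from the mm9 genome.
Lrp8 CiCo_mm9_circ_004236, chr4:107523913-107541755 on the plus strand: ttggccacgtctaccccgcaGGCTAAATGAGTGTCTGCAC
Anp32e CiCo_mm9_circ_004202, chr3:95737832-95741962 on the plus strand: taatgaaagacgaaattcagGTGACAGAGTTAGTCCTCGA
Anp32e CiCo_mm9_circ_004201, chr3:95737832-95741926 on the plus strand: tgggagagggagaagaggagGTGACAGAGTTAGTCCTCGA
D8Ertd82e CiCo_mm9_circ_006218, chr8:37162624-37167405 on the plus strand: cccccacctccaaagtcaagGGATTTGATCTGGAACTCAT
Mfng CiCo_mm9_circ_002130, chr15:78587727-78591321 on the minus strand: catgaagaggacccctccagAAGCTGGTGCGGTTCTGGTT
Mfng CiCo_mm9_circ_002131, chr15:78594745-78597350 on the minus strand: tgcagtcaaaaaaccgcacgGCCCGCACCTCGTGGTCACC
Acly CiCo_mm9_circ_000736, chr11:100353819-100357278 on the minus strand: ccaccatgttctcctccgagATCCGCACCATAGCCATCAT
Rhbdl3 CiCo_mm9_circ_001109, chr11:80133060-80151089 on the plus strand: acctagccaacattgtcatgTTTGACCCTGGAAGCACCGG
Magi1 CiCo_mm9_circ_005586, chr6:93695428-93723683 on the minus strand: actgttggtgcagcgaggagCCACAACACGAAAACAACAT
Elavl4 CiCo_mm9_circ_004254, chr4:109884031-109924126 on the minus strand: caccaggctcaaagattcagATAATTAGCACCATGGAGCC
Kif26b CiCo_mm9_circ_000202, chr1:180608957-180609490 on the plus strand: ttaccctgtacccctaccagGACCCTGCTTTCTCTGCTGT
Kif26b CiCo_mm9_circ_000203, chr1:180608957-180646100 on the plus strand: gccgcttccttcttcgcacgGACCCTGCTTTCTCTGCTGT
Both circRNAs of Anp32e begin with the same exon and end 36 bases apart, and both of Kif26b begin with the same exon and end with different ones, which the identical capitals show. In all 91 the genome has AG before the first base and GT after the last, as at canonical splice sites, which also holds for 4290 of the 4291 circRNAs with enough counts.

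Summed over the 91 circRNAs, the share of the counts outside the 27 entries describes how much of each library they took, and is higher in DP by choice. The share was 1.49% (95% Wilson interval 1.42 to 1.55), 1.52% (1.47 to 1.57) and 1.48% (1.40 to 1.57) in PP. It was 2.85% (2.79 to 2.91), 2.83% (2.77 to 2.90) and 2.86% (2.80 to 2.92) in DP. In N it was 1.03% (0.969 to 1.09), 1.17% (1.13 to 1.21) and 1.30% (1.25 to 1.35). The intervals are for each library alone and cover counting error only, overlapping circRNAs count shared reads more than once, and reads without molecular identifiers are not independent molecules. Most of the 91 differed by little. The smaller of DP/PP and DP/N had a median of 1.65, was under 2 for 76 circRNAs and was largest for Kif26b, at 8.58. All 91 have their highest mean in DP by choice, as do 26.4% of the 4291 circRNAs. Every DP library lay above every PP and every N library for 54 of the 91, beside 2.03% of the 4291. Of all 4406 circRNAs tested with edgeR's quasi-likelihood test over the 9 libraries, 1.48% were higher and 0.386% lower in DP than in PP, and 9.03% were higher and 9.8% lower in N than in DP, at an adjusted p under 0.05. These shares are the background for the calls given with each group of genes, which cover only circRNAs of a list that are not among the 91. No call is given for the 91 themselves, since these comparisons chose them.

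**Figure D1:**
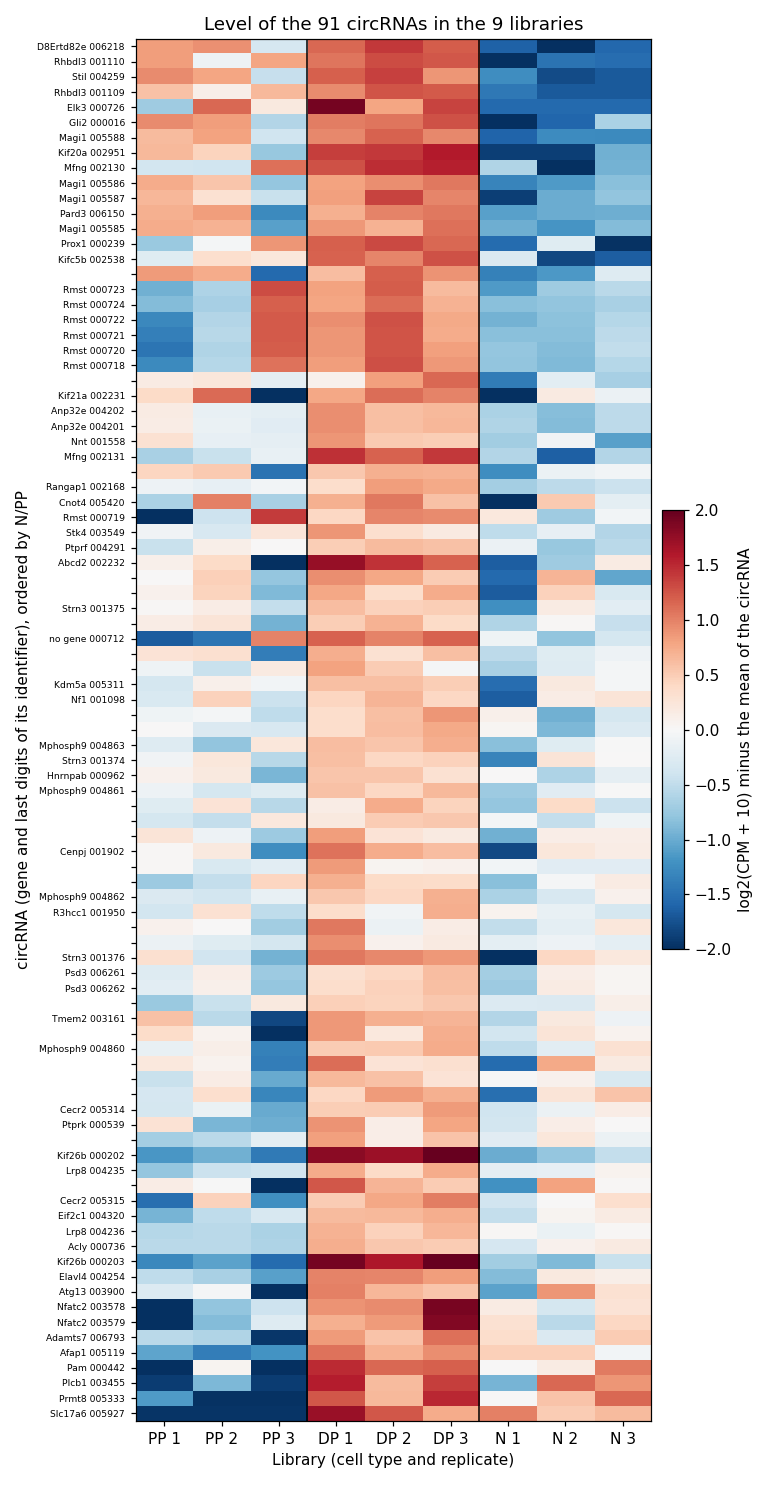
Level of the 91 circRNAs (rows, ordered from the lowest to the highest N/PP, with labels for genes named in the text) in the 9 libraries (columns), as log2(CPM + 10) minus the mean of the row, with colours limited to 2 in either direction. The DP values lie above the row mean, in red, in all but 3 of 273 cases by the way the circRNAs were chosen, PP replicate 3 is the highest PP library for 25 rows such as those of Rmst and the lowest for 53, and N replicate 1 is the lowest N library for 57.

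Genes of neurogenic commitment and of the Notch pathway gave circRNAs with large differences. Manic fringe (Mfng), a glycosyltransferase that modifies Notch receptors, had 2, and they were counted differently. CiCo_mm9_circ_002131 consists of 2 exons beginning with exon 3 of 8, and had 64.4, 75.7 and 95.7 CPM in PP, 313, 256 and 302 in DP and 68.0, 27.8 and 68.4 in N. All DP libraries lay far above the others, and the PP and N libraries overlapped. The mean in DP was 3.69 times that in PP and 5.30 times that in N. CiCo_mm9_circ_002130, farther downstream in the gene, had 266, 257 and 754 CPM in PP, 849, 974 and 1036 in DP and 223, 31.3 and 173 in N. PP replicate 3 was close to the DP libraries and set most of the spread in PP, with a mean of 426 ± 284 CPM (SD, n = 3). DP/PP was 2.24 with that library and 3.65 without it. The counted length of 3596 bases is that of the whole genomic interval, where the annotated exons take 341, so that its counts can include intronic reads.

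Elavl4, an RNA-binding protein of the Hu family that marks cells entering the neuronal lineage, had 201, 182 and 132 CPM in PP, 588, 585 and 527 in DP and 155, 337 and 319 in N for CiCo_mm9_circ_004254. The DP libraries were alike and above all others, N replicate 1 lay among the PP libraries, and N replicates 2 and 3 lay in between. DP/PP was 3.31 and DP/N 2.10. Of the 11 circRNAs of the list of neurogenic commitment, the 3 of Mfng and Elavl4 were chosen. Of the 8 others, 2 were higher in DP than in PP, and 0 passed between N and DP in edgeR's test (0 at an unadjusted p under 0.05 and 0 in DESeq2). In all, 5 of 39 circRNAs of the Notch list with enough counts were among the 91, against 2.12% of all. Of the 36 others tested from that list, 1 was lower in DP than in PP, and 2 were higher and 10 lower in N than in DP.

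The largest values of the smaller of DP/PP and DP/N were those of Kif26b, an atypical kinesin with roles in cell polarity and adhesion. CiCo_mm9_circ_000202, which is exon 3 of 15 alone, had 2, 4 and 1 counts in PP, 56, 49 and 75 in DP and 2, 7 and 7 in N. This corresponds to 16.1, 20.2 and 11.97 CPM in PP, 195, 182 and 273 in DP and 19.4, 24.3 and 31.9 in N. PP and N were near the floor of 3 counts, which is worth between 10.4 and 35.9 CPM depending on the library, and every DP library was several times higher. The mean in DP was 13.5 times that in PP and 8.58 times that in N. CiCo_mm9_circ_000203, with the next exon added, had 15.3 and 8.21, but the shared exon gives both the same reads, so that they are not separate observations.

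**Figure D2:**
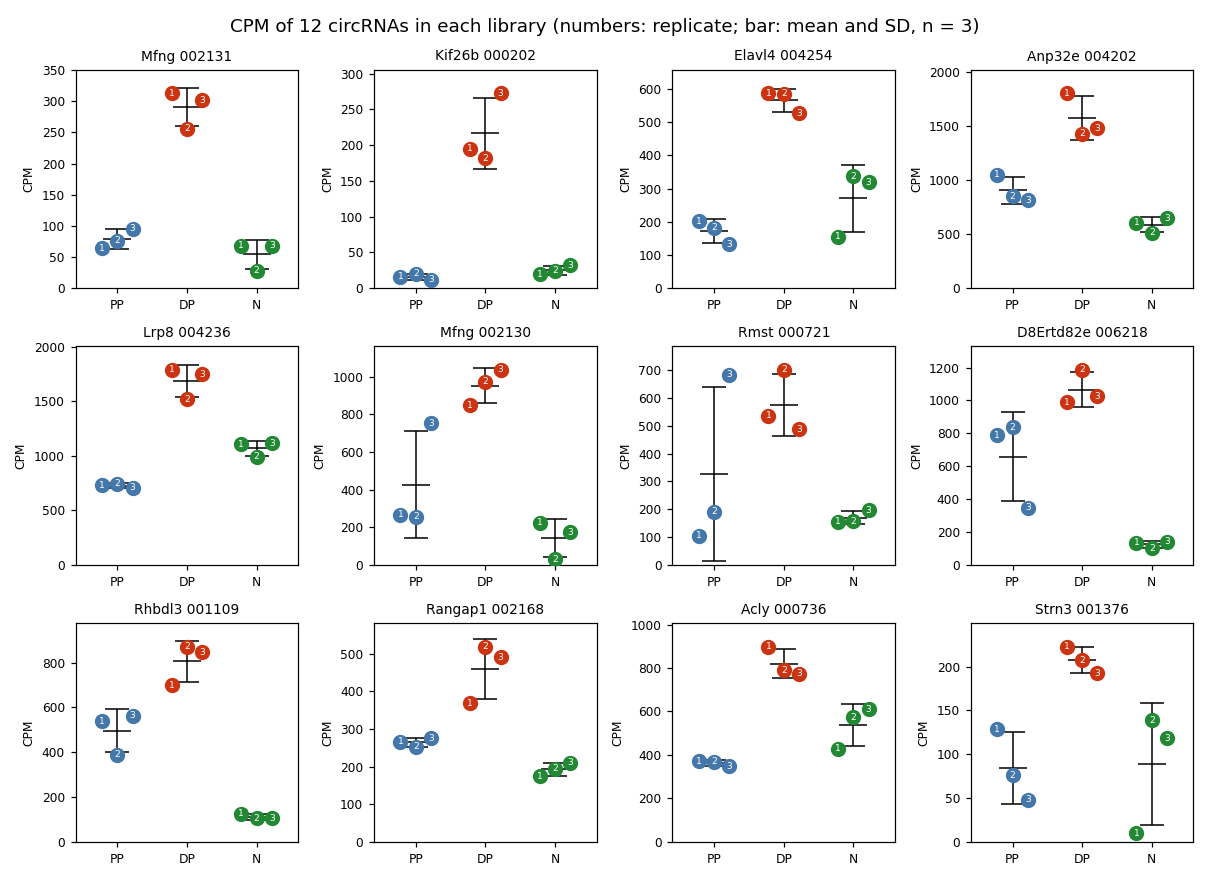
CPM (vertical axis, from 0) of 12 circRNAs in PP, DP and N, with a numbered point for each replicate and a bar for the mean and SD (n = 3). The DP libraries lie above all others in each panel except that of Rmst (CiCo_mm9_circ_000721), where PP replicate 3, at 682 CPM, lies among them.

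Receptors, adhesion and scaffold proteins contributed the most abundant circRNAs. Lrp8, a receptor for reelin that guides migrating neurons, had 732, 747 and 706 CPM in PP, 1789, 1519 and 1749 in DP and 1107, 993 and 1116 in N for CiCo_mm9_circ_004236, the highest CPM in DP of the 91. Replicates were tight in all cell types, and the order was DP, N, PP without overlap. DP/N was 1.57, close to the threshold, and the criterion was not met with TMM scaling. The shorter CiCo_mm9_circ_004235 begins with the same exon and had DP/PP of 2.26 and DP/N of 1.66. Both have counted lengths over 2.5 times the annotated exons, 4409 against 1681 bases and 2342 against 914. Ptprf, a receptor tyrosine phosphatase of the LAR family, had 137, 207 and 191 CPM in PP, 271, 300.1 and 291 in DP and 175, 108 and 128 in N for CiCo_mm9_circ_004291, a single exon of 220 counted bases. Ptprk, of the same class, had DP/PP of 2.21 and DP/N of 1.69. Its PP replicate 1 lay above DP replicate 2, and DP/PP was 3.40 without that PP library. Tmem2, a hyaluronidase of the cell surface, had 298, 131 and 47.9 CPM in PP, 365, 326 and 319.9 in DP and 126, 226 and 182 in N for CiCo_mm9_circ_003161, where the PP libraries differed by up to 6.22-fold and all lay below DP. The list of axon guidance and adhesion gave 4 of its 126 circRNAs with enough counts (3.17%), those of Lrp8, Ptprf and Ptprk. Of the 119 others tested from it, 18 were higher and 1 lower in DP than in PP, and 38 were higher and 14 lower in N than in DP.

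Magi1, a scaffold of cell junctions and synapses, had 4 overlapping circRNAs, which share reads and are all that the list of synapse and channel genes gave, of 65 with enough counts (6.15%). Of the 59 others tested from that list, 1 was higher in DP than in PP, and 23 were higher and 8 lower in N than in DP. The most abundant, CiCo_mm9_circ_005586, had 603, 530.0 and 203 CPM in PP, 626, 685 and 749 in DP and 136, 156 and 196 in N. PP replicates 1 and 2 came close to DP, and PP replicate 3 was at a level near N. Without PP replicate 3, DP/PP was 1.21, 1.25 and 1.14 for CiCo_mm9_circ_005586, CiCo_mm9_circ_005588 and CiCo_mm9_circ_005585, below the threshold, and 1.51 for CiCo_mm9_circ_005587. DP/N was between 3.98 and 5.75 for all 4. Pard3, a polarity protein of apical junctions, had the same form, with 362, 394 and 83.8 CPM in PP, 362, 441 and 458 in DP and 97.1, 104 and 105 in N for CiCo_mm9_circ_006150. Here too PP replicate 3 was near N, DP/PP was 1.11 without it, and PP replicate 2 lay above DP replicate 1. For these circRNAs N was below DP in every library, whereas DP/PP reached the threshold only with PP replicate 3, except for CiCo_mm9_circ_005587.

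Anp32e, a chaperone that removes the histone variant H2A.Z from chromatin, had 1046, 848 and 814 CPM in PP, 1803, 1426 and 1479.6 in DP and 602, 514 and 647 in N for CiCo_mm9_circ_004202, 4 exons beginning with exon 2 of 7. All DP libraries were above all PP libraries, and these above all N libraries. DP/PP was 1.74 and DP/N 2.67, and CiCo_mm9_circ_004201, which lacks 36 bases at its end, had 1.75 and 2.66. Rhbdl3, a rhomboid-like membrane protein, had 539, 389 and 562 CPM in PP, 699, 871 and 847 in DP and 126, 104 and 105 in N for CiCo_mm9_circ_001109. N was lowest by far, with DP/N of 7.21, and DP/PP was 1.62. D8Ertd82e had 789, 838 and 347 CPM in PP, 988, 1186 and 1025 in DP and 136, 101 and 141 in N for CiCo_mm9_circ_006218, which holds the start codon. DP/N was 8.46, and DP/PP was 1.62 with PP replicate 3 and 1.31 without it. Acly, which makes acetyl-CoA in the cytosol, had 370.1, 368 and 347 CPM in PP, 898, 789 and 774 in DP and 427, 573 and 611 in N for CiCo_mm9_circ_000736. PP was lowest with little spread, N was between, and DP/N was 1.53.

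Genes of the centrosome, the spindle and mitosis gave a share of their circRNAs close to that of all genes. Of 132 circRNAs from the list of cell cycle genes with enough counts, 3 were chosen, those of Cenpj, Stil and Kif20a, a share of 2.27% beside 2.12% for all. Of the 135 others tested from this list, 0 passed between DP and PP in edgeR's test (0 higher and 7 lower in DP at an unadjusted p under 0.05, and 0 in DESeq2), and 70 were lower in N than in DP. The cytokinesis kinesin Kif20a had 6, 8 and 1 counts in PP, 25, 24 and 28 in DP and 0, 0 and 2 in N. Over summed counts DP was 28.2 times N (95% counting interval 7.56 to 237), and DP/PP was 2.76. Stil, needed for centriole duplication, had 3 counts in N in all, and DP was 19.3 times N (6.37 to 95.6). The intervals of Kif20a and Stil cover counting error only and not the spread between libraries. They concern a comparison that chose these circRNAs and are no test of it. DP/PP of Stil was 1.63, and 1.26 without PP replicate 3, below the threshold. Cenpj, a partner in centriole assembly, had 129, 146 and 47.9 CPM in PP, 278, 219 and 199.9 in DP and 29.1, 149 and 141 in N. Its N replicate 1 was far below N replicates 2 and 3, which overlapped PP. Mphosph9, a protein of the centriole, is on none of the lists and had 4 overlapping circRNAs with DP/PP between 1.82 and 2.18 and DP/N between 1.77 and 2.16. In all 4 the DP libraries lay above all others. Rangap1, which activates the GTPase Ran at nuclear pores and kinetochores, had 266, 252 and 275 CPM in PP, 369, 519 and 491 in DP and 175, 194 and 209.6 in N for CiCo_mm9_circ_002168, with tight replicates in PP and N. Kifc5b, a minus-end kinesin that is closely related to Kifc1, had DP/PP of 2.22 and DP/N of 6.69, which are uncertain as far as reads of both genes were mixed. Its DP/N rests on 4, 2 and 2 counts in N and was 15.2 without N replicate 1.

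Transcription and chromatin factors were mostly of low count. Prox1, a homeobox factor of neural development, had 24.1, 45.4 and 95.7 CPM in PP, 122, 133 and 116 in DP and 9.71, 38.2 and 4.56 in N for CiCo_mm9_circ_000239, which holds the start codon, and DP was above all others. Nfatc2, a factor activated through calcium and calcineurin, had 0, 25.2 and 35.9 CPM in PP, 104, 107 and 218 in DP and 58.3, 38.2 and 63.8 in N for CiCo_mm9_circ_003578, with DP replicate 3 above DP replicates 1 and 2. The ETS factor Elk3 had no count in N and 29, 11 and 18 in DP, at least 14.05-fold higher against a floor of 3 counts over the group. Its PP and DP libraries overlapped. Gli2, the effector of Hedgehog signalling and the only circRNA of the radial glia list among 30 with enough counts, had 88.5, 80.8 and 23.9 CPM in PP, 94.0, 96.3 and 113 in DP and 0, 6.94 and 22.8 in N for CiCo_mm9_circ_000016. Of the 29 others tested from the radial glia list, 5 were lower in DP than in PP and 23 lower in N than in DP. DP/PP of the Gli2 circRNA was 1.57 with PP replicate 3 and 1.19 without it. Cecr2, a subunit of chromatin remodelling complexes, had 2 circRNAs with DP/PP of 2.27 and 2.92 and DP/N of 1.73 and 1.87. The 2.92, of CiCo_mm9_circ_005315, was 7.83 without PP replicate 2. The list of chromatin regulators, which also holds Kdm5a, a demethylase of histone H3, had 6 of 274 circRNAs among the 91, or 2.19%. Of the 269 others tested from this list, 0 passed between DP and PP in edgeR's test (8 higher and 6 lower in DP at an unadjusted p under 0.05, and 0 in DESeq2), and 3 were higher and 19 lower in N than in DP.

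Of 154 circRNAs of RNA-binding and splicing factors with enough counts, 3 were chosen, those of Elavl4, Eif2c1 and Cnot4, or 1.95%. Of the 154 others tested, 4 were higher in DP than in PP, and 11 were higher and 4 lower in N than in DP. Eif2c1 (Argonaute 1), which binds miRNAs, had 153, 207 and 239 CPM in PP, 469.8, 478 and 502 in DP and 214, 313 and 337 in N for CiCo_mm9_circ_004320, with tight DP replicates, and its counted length of 868 bases covers the whole interval. Hnrnpab, an RNA-binding protein outside that list, had 370.1, 399 and 179 CPM in PP, 515, 511 and 429 in DP and 349.7, 222 and 305 in N for CiCo_mm9_circ_000962. Its DP/PP was 1.53, and 1.26 without PP replicate 3, and its DP/N was 1.66, and 1.48 without N replicate 2. At 142 counted bases, it is the shortest of the 91 and had the highest level per length in DP, at 3416 CPM per kilobase, followed by both circRNAs of Anp32e with 2713 and 2586. The median of the 91 on that scale was 337, and that of all 4291 was 227. Strn3, a regulatory subunit of phosphatase 2A, had 3 circRNAs that all begin with exon 2 of 18. For the shortest, CiCo_mm9_circ_001376, the values were 129, 75.7 and 47.9 CPM in PP, 223, 207 and 193 in DP and 9.71, 139 and 118 in N, with N replicate 1 at 1 count. Its DP/PP was 2.47 and DP/N 2.33, and those of the longer CiCo_mm9_circ_001375 and CiCo_mm9_circ_001374 were 1.54 and 1.52, and 1.83 and 1.65.

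Rmst, a long noncoding RNA that is linked with Sox2 in neuronal differentiation, had 7 circRNAs, more than any other gene, and all of its circRNAs with enough counts were chosen. Of these, 5 start at the same exon, with the first bases ATACTCAGGTTGATGGAGTC, and several share ends, so that their counts overlap. CiCo_mm9_circ_000718 (chr10:91546619-91599435, minus strand) had 137, 227 and 742 CPM in PP, 623, 856 and 633 in DP and 194, 181 and 228 in N. PP replicate 3 was among the DP libraries, PP replicates 1 and 2 were near the level of N, and N was uniform. In all 7, PP replicate 3 was 4.08 to 8.30 times the mean of PP replicates 1 and 2, and in CiCo_mm9_circ_000719, CiCo_mm9_circ_000723 and CiCo_mm9_circ_000724 it lay above every DP library. Without PP replicate 3, DP/PP of the 7 was between 3.32 and 5.32, and with it between 1.55 and 1.91. The only circRNA without a gene, CiCo_mm9_circ_000712 (chr10:91537915-91538418, minus strand), lies 2985 bases from Mir135a-2 on the same strand, downstream of Rmst. Its values were 16.1, 20.2 and 156 CPM in PP, 177, 156 and 178 in DP and 68.0, 38.2 and 54.7 in N. It shared the high PP replicate 3, and DP/PP was 2.66 with that library and 9.39 without it.

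A few circRNAs were near absent in PP, and the first 3 given here were named for that. Slc17a6, the vesicular glutamate transporter VGLUT2, had no count in PP and 34, 22 and 15 in DP, at least 11.5-fold higher against a floor of 3 counts over the group, and 7, 13 and 11 in N. Prmt8, an arginine methyltransferase of neurons, had 1 count in PP in all, with DP 32.2 times PP over summed counts (95% counting interval 5.58 to 1290.5). Plcb1, a phospholipase C of receptor signalling, had 2, with DP 16.1 times PP (4.28 to 136). For these 3 the N libraries overlapped those of DP, and DP/N was 1.56, 1.53 and 1.67. The intervals of Prmt8 and Plcb1 cover counting error only and not the spread between libraries. They concern a comparison that chose these circRNAs and are no test of it. Afap1, an actin filament binding protein, had 40.2, 30.3 and 35.9 CPM in PP, 212, 159 and 189 in DP and 136, 135 and 91.1 in N for CiCo_mm9_circ_005119, with DP above all others. None of the 43 circRNAs of newborn neuron genes with enough counts was chosen. Of 40 tested from that list, 13 were higher in DP than in PP and 32 higher in N than in DP.

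**Figure D3:**
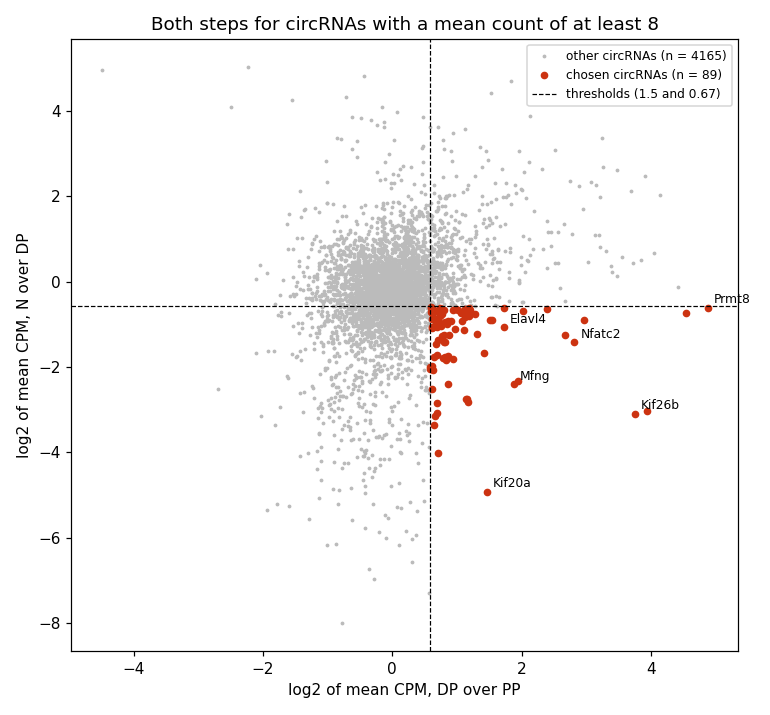
Log2 of DP over PP (horizontal) against log2 of N over DP (vertical), from mean CPM of 3 libraries each, for 4254 circRNAs with counts in all cell types, 89 of them chosen (red). Dashed lines mark the thresholds of 1.5 and 0.67, most of the chosen circRNAs lie close to the corner of both, and those of Kif26b, Mfng and Kif20a lie farther out.

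The criteria leave the order of N and PP open. N was at most 0.67 times PP for 27 of the 91 (34.8% of the 4291 circRNAs), at least 1.5 times PP for 14 (21.6%) and between these for 50. The median log2 of N/PP was -0.14, and over all circRNAs with enough counts it was -0.22. The circRNAs lower in N included those of D8Ertd82e, Rhbdl3, Magi1, Pard3, Gli2, Stil and Kif20a, and those higher in N included Elavl4, Kif26b, Nfatc2, Afap1, Pam and the 3 that were near absent in PP. No test of N against PP is given, since the levels in both entered the choice.

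**Figure D4:**
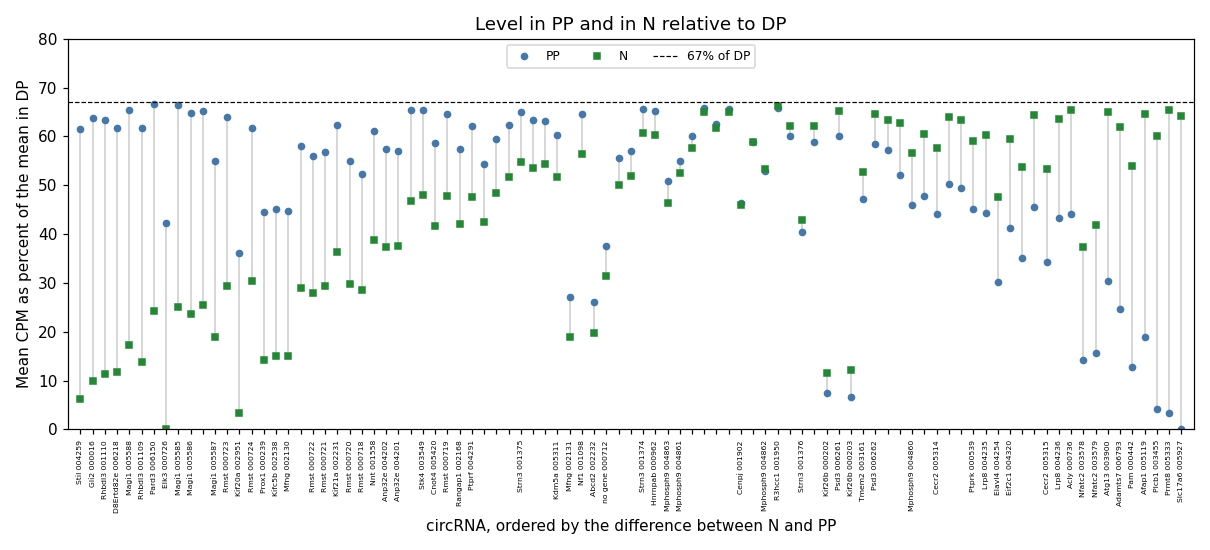
Mean CPM in PP (blue circles) and in N (green squares) as a percentage of the mean in DP, for the 91 circRNAs in order of the difference between N and PP, with labels for genes named in the text and a dashed line at 67%. To the left N is far below PP, as for Stil and Gli2, to the right PP is near 0, as for Prmt8 and Slc17a6, and few circRNAs such as those of Kif26b are low in both.

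The parental genes gave 66 other circRNAs with enough counts that were not chosen. Of these, 25 overlap a chosen one and can share its reads, and 24 were highest in DP. The other 41, from 24 genes, share no base with a chosen circRNA. Of these, 28 (68.3%) had their highest mean in DP, beside 24.8% of the 4200 circRNAs that were not chosen. Their median DP/PP was 1.16 and their median N/DP 0.653, beside 0.983 and 0.890 for the 4200. These values come from the same libraries as the choice and are a description. Lrp8 had CiCo_mm9_circ_004234 upstream of both chosen circRNAs, with DP/PP of 3.14 and N/DP of 0.778. Acly had CiCo_mm9_circ_000739, with 2.33 and 0.685, and Afap1 CiCo_mm9_circ_005120, with 6.37 and 0.731, and each missed the criterion for N alone. The last had 44.8 CPM ± 40.0 (SD, n = 3) in PP, and its DP/PP was 12.4 without PP replicate 1. DP/PP was under 1 for 13 of the 41, from 9 genes. It was lowest for CiCo_mm9_circ_005312 of Kdm5a, at 0.449, followed by 3 of Nf1 between 0.743 and 0.835, CiCo_mm9_circ_003545 of Stk4 at 0.765 and 2 of Psd3 at 0.804 and 0.829. The other 6 lay between 0.891 and 0.996. Without PP replicate 3, the 2 of Psd3 had 1.71 and 1.51, so that their direction turned. Of the 13, only CiCo_mm9_circ_005312 of Kdm5a and CiCo_mm9_circ_001099 of Nf1 stayed under 1 with each PP library left out in turn. Some of the 28 with DP highest turned as well. Without PP replicate 3, DP/PP was 0.775 for CiCo_mm9_circ_001444 of Syne2, 0.885 for CiCo_mm9_circ_001900 of Cenpj and 0.866 for CiCo_mm9_circ_002230 of Kif21a. Others, such as CiCo_mm9_circ_004234 of Lrp8, stayed above 1. Several of the 41 come from the same gene, as for Magi1, Pard3 and Syne2, and are not separate observations. For 34 of the 65 genes all circRNAs with enough counts were chosen, of which 8 genes had 2 or more.

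In structure the 91 were near the other circRNAs. The median counted length was 564 bases and that of the 4291 was 533. For 73 of the 90 with annotated exon ends the counted length matched a set of annotated exons, with a median of 3 exons, as for all. The first exon was exon 2 of the transcript for 31.5% of these and 31.2% of all, and the start codon was included in 12.3% and 15.3%. The counted length exceeded the annotated exons for the other 17 (18.9%, and 13.0% of all), which include the circRNAs of Lrp8, Acly, Elavl4, Eif2c1 and Kif20a, 1 each of Mfng and Kif21a, and 6 of Rmst. For 5 of these the whole interval was counted. Their counts can include reads outside the exons of the circle, and the part of such reads in these values was not tested. Counts cover all reads on a circRNA, not the junction alone, and the 91 lie at 68 separate loci, with 39 from 14 genes that have 2 or more.

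To see how the choice carries over to libraries that it did not use, the criteria were applied to the libraries with 2 of the replicate numbers and the levels were read in the 3 libraries with the other number. These choices differ from the 91, which hold 54 of 128, 76 of 238 and 63 of 154 of the circRNAs so chosen with replicate 1, 2 or 3 held out. With replicate 1 held out, DP was the highest of its 3 libraries for 54.7% of 128 chosen circRNAs, beside 30.9% of all with enough counts. With replicate 2 held out it was 38.7% of 238 beside 24.1%, and with replicate 3 held out 42.2% of 154 beside 32.9%. The median DP/PP in the held-out libraries was 1.18, 1.01 and 0.967, where all circRNAs had 0.999, 0.979 and 1.22. The median DP/N was 2.87, 1.36 and 1.43, where all had 1.54, 1.02 and 1.06. In the held-out libraries the median DP/N was above that of all circRNAs for each number. The median DP/PP was above that of all with replicate 1 or 2 held out and below it with replicate 3 held out.

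**Figure D5:**
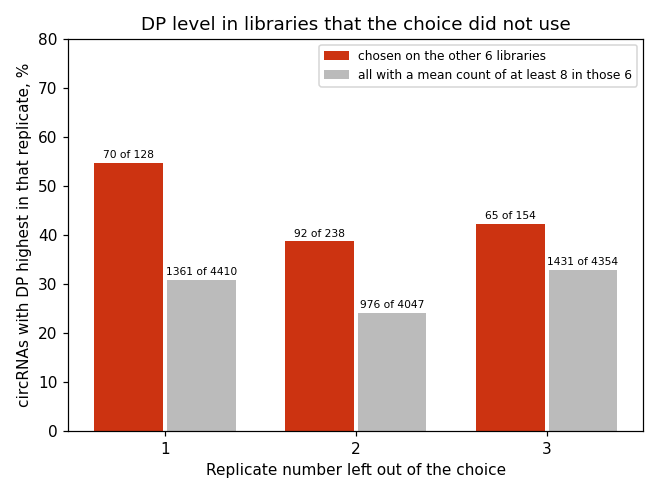
Percentage of circRNAs whose DP library is the highest of the 3 libraries with a replicate number that the choice did not use (bars from 0, with counts above them), for circRNAs chosen on the other 6 libraries (red) and for all with enough counts (grey). The red bars stand at 54.7, 38.7 and 42.2% and the grey bars at 30.9, 24.1 and 32.9%.

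The scaling of the libraries also moved the choice. Under the scaling used here the median log2 N/DP of the 4291 circRNAs was -0.19, with TMM it was -0.02 and with RLE size factors 0.00, so that values of N relative to DP are best read against that shift. TMM scaling kept 64 of the 91, and 2 others entered. Across 3 other scalings and the omission of each of the 9 libraries, 28 of the 91 met the criteria in all 12 settings and 13 in all but 1. Of the circRNAs described by library, those of Rhbdl3, Ptprf and D8Ertd82e met them in 11 settings. Those of Lrp8, Eif2c1, Plcb1 and Magi1 (CiCo_mm9_circ_005586) met them in 10, those of Elk3, Acly, Slc17a6 and Afap1 in 8, those of Hnrnpab and Prmt8 in 6, and the 7 of Rmst in 6 to 11. The 28 derive from 18 genes and the locus near Rmst. They include both circRNAs of Kif26b, Mfng, Nfatc2, Anp32e and Cecr2, all 4 of Mphosph9, and those of Elavl4, Prox1, Pam, Cenpj, Rangap1, Abcd2, Kifc5b, Kif20a, Tmem2, Strn3 (CiCo_mm9_circ_001376) and Magi1 (CiCo_mm9_circ_005587). At the thresholds, the smallest DP/PP were 1.502 (Pard3) and 1.505 (Magi1, CiCo_mm9_circ_005585), and Psrc1 with 1.490 and Mad1l1 with 1.489 were just outside. The largest N/DP were 0.663 (R3hcc1) and 0.654 (Acly), and Drg1 with 0.671 and Adamts7 (CiCo_mm9_circ_006792) with 0.675 were just outside. The smallest mean counts inside were 8 (Elk3) and 9.78 (Atg13), and 7.33 (BC057079) and 7.22 (Nnt, CiCo_mm9_circ_001559) lay below.

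For 41 circRNAs the study designed divergent or cloning primers, of which 40 are in the table, and 17 of the 91 are among them. These include CiCo_mm9_circ_004202 of Anp32e, CiCo_mm9_circ_002131 of Mfng, CiCo_mm9_circ_000203 of Kif26b and 2 of Rmst, which also had cloning primers, and those of Elavl4, Tmem2, Cenpj, Abcd2, Nfatc2, Prox1 and D8Ertd82e. The study chose them with these data known, so that their number says nothing about the 91. Abcd2, a transporter of fatty acids into peroxisomes, had 56.3, 70.7 and 0 CPM in PP, 198, 159 and 131 in DP and 9.71, 27.8 and 59.2 in N for CiCo_mm9_circ_002232, with no count in PP replicate 3 and DP above all others.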

How the data were processed

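The authors aligned reads to mm9 with gsnap, searched the unaligned ones for backsplice junctions with find_circ, and counted all reads on the expressed features of each circRNA with featureCounts (Subread 1.6.0 in the submitters' notes, which also name bcl2fastq 1.8.4). The deposited values are whole-number counts for 9 libraries, not normalized. From these counts, CPM, group means and the criteria were computed with Python 3.11.15, pandas 2.3.3 and numpy 2.4.6. The comparisons used edgeR 4.0.16 in R 4.3.3 (quasi-likelihood, TMM, filterByExpr, Benjamini-Hochberg over all tested circRNAs, one model over the 9 libraries, no block) and DESeq2 1.42.0 as an alternative, and the steps were tested on simulated data. Parental genes and exons came from GENCODE vM1 and junctions from the NCBIM37 (mm9) genome with pysam 0.24.0. Figures were drawn with matplotlib 3.10.9 and counting intervals with scipy 1.17.1. Ratios of means carry no pseudocount, and levels per length are CPM per kilobase of counted length.

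The criteria, the members and the gene lists were chosen with earlier results of these data known. Named circRNAs were the 15 with the highest CPM in DP among those with groups apart and the 8 with the largest smaller fold (1 per gene in both). Others were up to 4 per gene list, those next to each threshold and those with primers of the study. Of the genes with 2 or more circRNAs among the 91, some but not all were named. Circles named for other reasons, such as that of Gli2 or Afap1, were chosen after their values were seen. That libraries are biological replicates comes from the study's methods, and p-values measure the spread between these libraries. A floor of 3 counts was worth between 10.4 and 35.9 CPM. The alternatives were other scalings, filters, thresholds and summaries, a replicate block, and the omission of each library. The circRNAs of 1 gene among the 91 are not reported here by name.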

Additional observations from a re-analysis of the deposited data

How the results depend on the processing

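Of the 91 circRNAs, 64 met the criteria with TMM scaling (66 chosen), 61 with RLE (63) and 82 with total counts (128), and 53 of the 107 chosen with PP replicate 3 and N replicate 1 left out together. The number chosen was 51 at a mean count of at least 20, 52 with DESeq2 fold changes, 15 at thresholds of 2 and 0.5, and between 81 and 161 with each library left out in turn. The number with DP above all other libraries was 54, and it was 39 with TMM, 36 with RLE, 50 with total counts, 84 with PP replicate 3 and N replicate 1 left out together, and between 53 and 98 with each library left out. These are counts among the circRNAs chosen in each setting, whose number also changed. With fewer libraries DP more easily lies above all others, and the share over all circRNAs is not given for these settings. A higher number is therefore not a cleaner separation. Over all tested circRNAs, calls between DP and PP, N and DP, and N and PP numbered 82, 830 and 1235. They numbered 22, 407 and 649 with total counts and 12, 134 and 283 with at least 10 counts in every library, which also left fewer circRNAs to test, and N against PP gave 735 from its own libraries alone. With each library left out, calls between DP and PP were between 37 and 183 and between N and DP between 552 and 1239. The 183 came without PP replicate 3, 140 without N replicate 1 and 37 without DP replicate 3, and the 552 without DP replicate 2. The cause of these shifts was not tested. When replicate number entered as a block, the calls numbered 48, 692 and 1061. Libraries with the same number did not deviate together (mean correlation of deviations -0.0249, between -0.186 and 0.239, beside 0.0187 for different numbers), and whether they share litters or sorts is not given in the sources used here. For the 23 circRNAs named for their level in DP or smaller fold, no ratio changed direction in 13 alternatives, and 8 of 598 values moved beyond the replicate spread. The other named circRNAs were not run there. The 15 named by level have every DP library above all others, so that leaving out a library cannot turn their ratios. The 8 others were named for large ratios, so that these numbers do not measure how stable the 91 are. Of the 91, 28 met the criteria in all 12 settings given above. Shallow libraries limit circRNAs near the floor of 3 counts, such as those of Kif26b in PP.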

Other observations

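Leaving out PP replicate 3 and N replicate 1 brought in 54 circRNAs of 42 genes that were not among the 91, and all were named after their values were seen. For 34 of them the DP libraries lay above all PP and N libraries of the 7 left, which are the libraries that chose them. In 40 of the 54, PP replicate 3 lay above the DP mean, and in 16 N replicate 1 did. The largest smaller fold was that of Glis3, a zinc finger transcription factor. CiCo_mm9_circ_003173 of Glis3 had 48.3, 0 and 215 CPM in PP, 66.1, 59.3 and 94.5 in DP and 77.7, 24.3 and 18.2 in N. CiCo_mm9_circ_005766 of Fam53b had 56.3, 60.6 and 203 CPM in PP, 139, 100.04 and 160.0 in DP and 107, 45.1 and 68.4 in N. In both, PP replicate 3 was the highest of the 9 libraries. Fam53b, Taf15, Rprd1b and Gas2 gave 3 of the 54 each.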
